A study of Mus musculus with 48 samples.

Results

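The genes followed here encode lipid droplet proteins and the regulators of the first step of lipolysis in mouse liver. They are Hsd17b11, Hsd17b13, Plin2, Plin4, Plin5, Cidec, Cideb, Pnpla2 and G0s2, taken by symbol from the deposited count table. They make up 9 of its 54532 genes, and all 9 were among the 14555 genes that passed the filter on low counts. Liver RNA was sequenced in 48 libraries from male WT C57BL/6 mice, 8 to 10 weeks old. The phase shift arm (24 mice) had gone through a single light cycle advance of 6 h, which imitates jet lag, while the control arm (24 mice) had stayed on a stable 12:12 cycle. Livers were taken every 4 h over 24 h, between day 6 and day 7 after the shift. This gave 6 zeitgeber times per arm (ZT, hours after lights-on) with 4 libraries each. The arms were read from the sample titles, since the treatment field is the same for all 48 samples. The design text of the series names ZT0 and ZT12 alone, on day 7, and nothing in the labels says whether ZT in the phase shift arm counts from the new lights-on. Whole liver was used, so each value is an average over all its cells, and fewer cells of a type cannot be told apart from less RNA per cell.

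Lipid droplets store triacylglycerol and sterol esters behind a single layer of phospholipid, whose surface carries the perilipins (Plin genes), the CIDE proteins and several enzymes. Hepatocytes fill and empty these stores over the daily cycle of feeding and fasting. Release of the stored fat starts with adipose triglyceride lipase, encoded by Pnpla2, which is activated by ABHD5 and inhibited by the product of G0s2.

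Each library held between 15370303 and 19639753 counts. The median mitochondrial share was 7.11% of counts, with 9.88% to 19.9% in 8 libraries and at most 9.13% in the other 40. Summed markers of hepatocytes, the main cell of the liver, ran from 70218 to 114421 CPM (counts relative to the sum of each library) in the phase shift arm and from 83334 to 124904 CPM in control. Other cell types varied more between libraries. In the same order of arms, Kupffer cell markers ran from 24.5 to 784 and from 18.4 to 532 CPM. Sinusoidal endothelial markers ran from 36.7 to 453 and from 24.2 to 383 CPM. Stellate cell and fibroblast markers ran from 242 to 519 and from 164 to 484 CPM. Cholangiocyte markers ran from 19.3 to 77.7 and from 12.9 to 101 CPM. Of 8 adipocyte markers, whose cells are rich in the perilipins and in CIDEC, all were detected in at least 1 library. Adipoq was at 0 in 41 of 48 libraries, Plin1 in 40, Lep in 45, Ucp1 in 44, Retn in 39 and Cfd in 4. Fabp4 (median 5.54 CPM) and Adrb3 (median 3.02 CPM) were at 0 in none and had the highest medians of the 8. The sum of all 8 ran from 6.11 to 21.4 CPM in the phase shift arm and from 5.54 to 37.7 CPM in control. One library, phase shift ZT20 replicate 2, held 389 CPM of 8 cell division genes, against at most 7.69 CPM in control.

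Per unit of transcript length, Hsd17b13, Plin2 and G0s2 were the most abundant of the 9. Over all 48 libraries, Hsd17b13 averaged 123.8 ± 16.7 FPKM (counts scaled by gene length and library, mean ± SD), Plin2 113.9 ± 42.9 FPKM and G0s2 113.9 ± 63.7 FPKM. These 3 levels did not differ beyond their spread. Hsd17b11 followed at 57.7 ± 11.4 FPKM. Pnpla2 at 32.3 ± 13.3 FPKM, Cideb at 31.4 ± 4.18 FPKM and Plin5 at 27.9 ± 7.86 FPKM were again within each other's spread. The transcripts known best from fat tissue were scarce, with Cidec at 1.91 ± 1.22 FPKM (13 to 181 counts per library) and Plin4 at 0.623 ± 0.335 FPKM (13 to 194 counts per library). Libraries of the same group differed least for Cideb, with a median coefficient of variation of 10.0%, and most for G0s2, with 55.1%. Cidec had 43.0% and Plin4 40.7%, against a median of 18.3% over all genes tested.

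**Figure D1:**
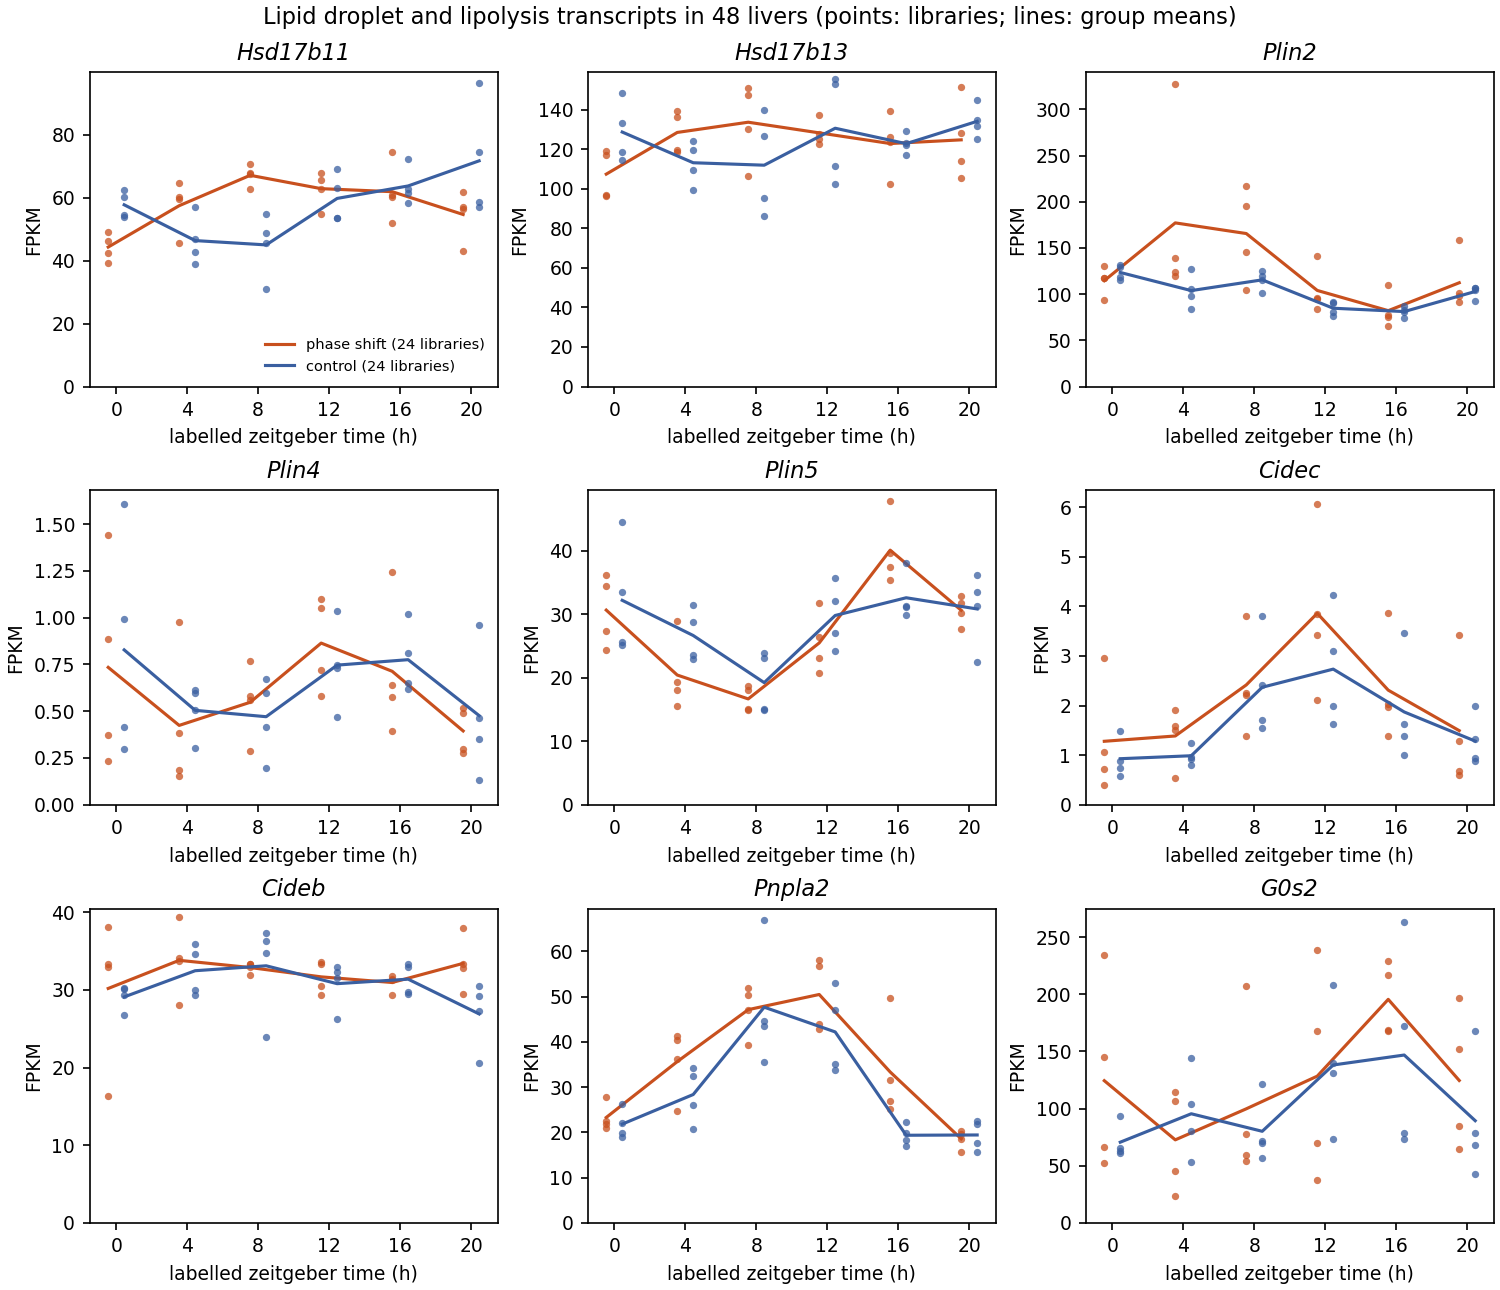
Level in FPKM (y axes, from 0) of each of the 9 genes against labelled zeitgeber time in hours (x axes); points are the 4 libraries per arm and time, phase shift drawn left of control, and lines join group means. Hsd17b11 is highest at ZT8 in the phase shift arm and at ZT20 in control, whereas Pnpla2 is high at ZT8 and ZT12 in both arms.

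The comparison of the arms asked whether the droplet and lipolysis genes stood at another level after the advance. No member passed the threshold of 0.05 on the adjusted p at any time or for the average over the day (edgeR, quasi-likelihood test, Benjamini-Hochberg adjustment over all 14555 genes). Few genes of the whole table passed it. The share of all genes called was 0% at ZT0, 0.117% at ZT4, 0.131% at ZT8, 0% at ZT12, 0% at ZT16, 0.295% at ZT20 and 0% for the average. With each of the 48 libraries left out, the number of all genes called ran from 0 (without control ZT4 replicate 2) to 62 (without phase shift ZT4 replicate 1) at ZT4, against 17 with all libraries. At ZT8 it ran from 1 (without phase shift ZT8 replicate 2) to 33 (without control ZT8 replicate 3), against 19. At ZT20 it was 0 without phase shift replicate 2, the library with the cell division transcripts, or without any 1 of the 4 control libraries of that time, and up to 101 without phase shift replicate 3, against 43. At an unadjusted p under 0.05, the test held 1 member at ZT0, 2 at ZT4, 2 at ZT8, 0 at ZT12, 1 at ZT16, 2 at ZT20 and 2 for the average. Of all genes tested, 7.37% did so at ZT0, 9.21% at ZT4, 11.7% at ZT8, 4.98% at ZT12, 4.42% at ZT16, 7.33% at ZT20 and 6.45% for the average. Limma on FPKM called no member in these comparisons, and DESeq2 called 1 at ZT8 (Hsd17b11, adjusted p = 0.0394) and 1 at ZT16 (Pnpla2, adjusted p = 0.0481). The average log2 difference was above 0 for 7 of 9 members, with a median of 0.07, and for 49.3% of all genes.

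**Figure D2:**
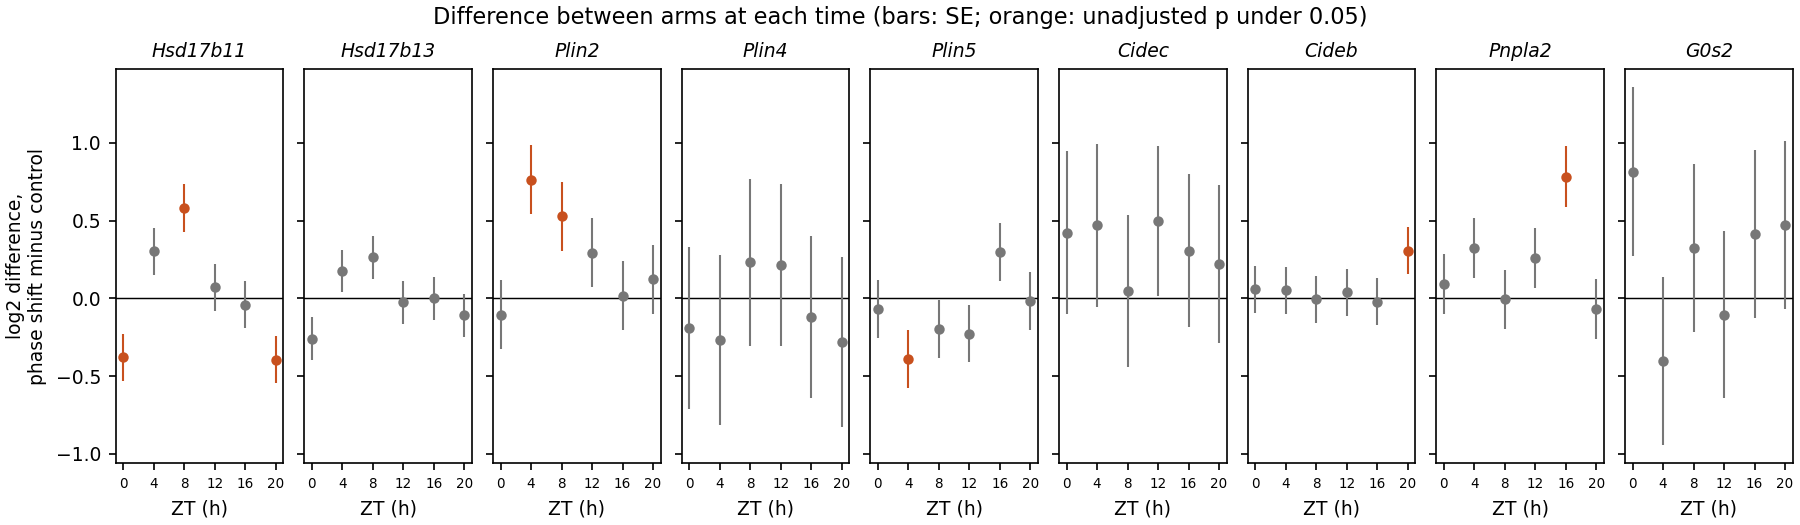
Log2 difference, phase shift minus control (y axis), of each gene at each labelled zeitgeber time in hours (x axis), with its standard error from edgeR, 4 libraries per arm and time. Orange points have an unadjusted p under 0.05; none passed after adjustment over all genes. Hsd17b11 stands at -0.38 at ZT0, 0.58 at ZT8 and -0.39 at ZT20, while Plin2 at ZT4 and Pnpla2 at ZT16 stand at 0.76 and 0.78.

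Over the day, 5 of 9 members had a rhythm in the phase shift arm (Hsd17b11, Plin2, Plin5, Cidec and Pnpla2), against 28.2% of all genes. In control 4 of 9 had one (Hsd17b11, Plin5, Cidec and Pnpla2), against 27.3% of all genes. Rhythm was tested in edgeR as a cosine and a sine of 24 h in each arm, with the period fixed because a single cycle was sampled. The rhythm differed between arms for 1 member, Hsd17b11, against 27 genes or 0.186% of all genes tested. That number ran from 6 (without any 1 of phase shift ZT8 replicates 1, 2 and 4) to 52 (without control ZT12 replicate 3) with each library left out. Plin2 passed in the phase shift arm and not in control (adjusted p = 0.0813), but the difference of its rhythms missed the threshold (adjusted p = 0.254), so it is not shown to differ between the arms.

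Hsd17b11 encodes a short-chain dehydrogenase that acts on steroids and sits on droplets. It lies on chromosome 5 of mm10, from 103989762 to 104021919 on the minus strand (ENSMUSG00000029311). Its group mean was highest at ZT8 and lowest at ZT0 in the phase shift arm, and highest at ZT20 and lowest at ZT8 in control. At ZT8 Hsd17b11 had 67.7, 70.6, 67.4 and 62.6 FPKM in phase shift livers, against 45.5, 31.1, 54.7 and 48.7 FPKM in control livers. All 4 phase shift livers stood above all 4 control livers, with means of 67.1 ± 3.33 and 45.0 ± 10.0 FPKM (SD, n = 4 each). The share of all genes whose groups did not overlap is not given here, so such a separation at any time is only a description. The log2 difference was 0.58 (SE 0.15), with an adjusted p of 0.113 in edgeR. Of the 14555 genes tested at ZT8, its p was number 53 in order. At ZT4 Hsd17b11 had 59.4, 45.4, 60.3 and 64.6 FPKM in phase shift livers, against 42.6, 38.9, 56.9 and 46.9 FPKM in control livers. There the second phase shift liver lay among the controls and the groups overlapped.

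At ZT20 and ZT0 the order of the arms was the opposite. At ZT20 Hsd17b11 had 57.1, 43.1, 56.5 and 61.9 FPKM in phase shift livers, against 96.6, 58.5, 74.5 and 57.1 FPKM in control livers. At ZT0 Hsd17b11 had 39.2, 49.1, 46.3 and 42.5 FPKM in phase shift livers, against 54.6, 53.7, 62.3 and 60.3 FPKM in control livers. The groups overlapped at ZT20, where 2 controls stood well above all other livers, and did not overlap at ZT0, where every phase shift liver was lower. The log2 differences were -0.39 (SE 0.15, adjusted p = 0.494) at ZT20 and -0.38 (SE 0.15, adjusted p = 0.657) at ZT0 in edgeR. Without control ZT20 replicate 1 the difference at ZT20 was -0.22. At ZT12 Hsd17b11 had 65.8, 67.9, 54.9 and 62.9 FPKM in phase shift livers, against 63.0, 53.4, 69.0 and 53.6 FPKM in control livers. At ZT16 Hsd17b11 had 60.8, 60.1, 74.6 and 52.1 FPKM in phase shift livers, against 61.5, 72.4, 62.7 and 58.2 FPKM in control livers. At both times the groups overlapped over most of their range.

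A 24 h curve of Hsd17b11 peaked at ZT 11.1 (SE 0.85 h) in the phase shift arm and at ZT 18.2 (SE 0.80 h) in control. The peak difference was -7.16 h (SE 1.17 h), earlier after the advance. The fitted amplitudes were 0.25 (SE 0.05) and 0.33 (SE 0.07) on the log2 scale in phase shift and control livers, which corresponds to a peak 1.40 times and 1.58 times the trough. In edgeR the rhythm passed in the phase shift arm (adjusted p = 0.00982) and in control (adjusted p = 0.000358), and so did the difference between them (adjusted p = 0.0276). That p was number 8 in order of the 14555 genes. Peaks of 10 clock genes in the same libraries differed by -1.19 to 0.65 h between the arms. Among the 2066 genes with a called rhythm in both arms (14.2% of those tested), the median peak difference was -0.14 h, and 71.2% lay within 2 h. A shift at least as large as that of Hsd17b11, in either direction, was found for 11 of them, itself included (0.532%). Amplitude was not matched in this comparison. In the phase shift arm 19.3% of these genes had a smaller amplitude than Hsd17b11, and in control 42.0%. Their median log2 amplitudes were 0.39 and 0.37.

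The call for Hsd17b11 was lost when some libraries were left out, with much mitochondrial RNA or without. Of the 8 libraries with much, control ZT8 replicate 2 (12.8% of counts) and phase shift ZT0 replicate 1 (19.9%) had the lowest Hsd17b11 level of their groups. So did control ZT12 replicate 2 and phase shift ZT4 replicate 2. Control ZT20 replicate 1 (12.1%) and phase shift ZT0 replicate 2 (9.88%) had the highest of theirs. Control ZT4 replicate 1 and phase shift ZT4 replicate 3 lay inside the range of their groups. Without all 8 libraries with much mitochondrial RNA the peaks were at ZT 10.5 in the phase shift arm and ZT 17.4 in control. The peak difference was then -6.87 h (SE 1.42 h, 20 libraries per arm), and the difference in rhythm had an adjusted p of 0.140 in edgeR. With the mitochondrial share as a covariate it stayed past the threshold. Over the 48 libraries, as deviations from group means, log2 Hsd17b11 and the log2 mitochondrial share had a correlation of -0.25. Without control ZT20 replicate 1 the adjusted p was 0.0668, and without any 1 of the 4 phase shift ZT8 libraries it was 0.0535 to 0.0611. None of these 4 was among the 8 libraries with much mitochondrial RNA.

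**Figure D3:**
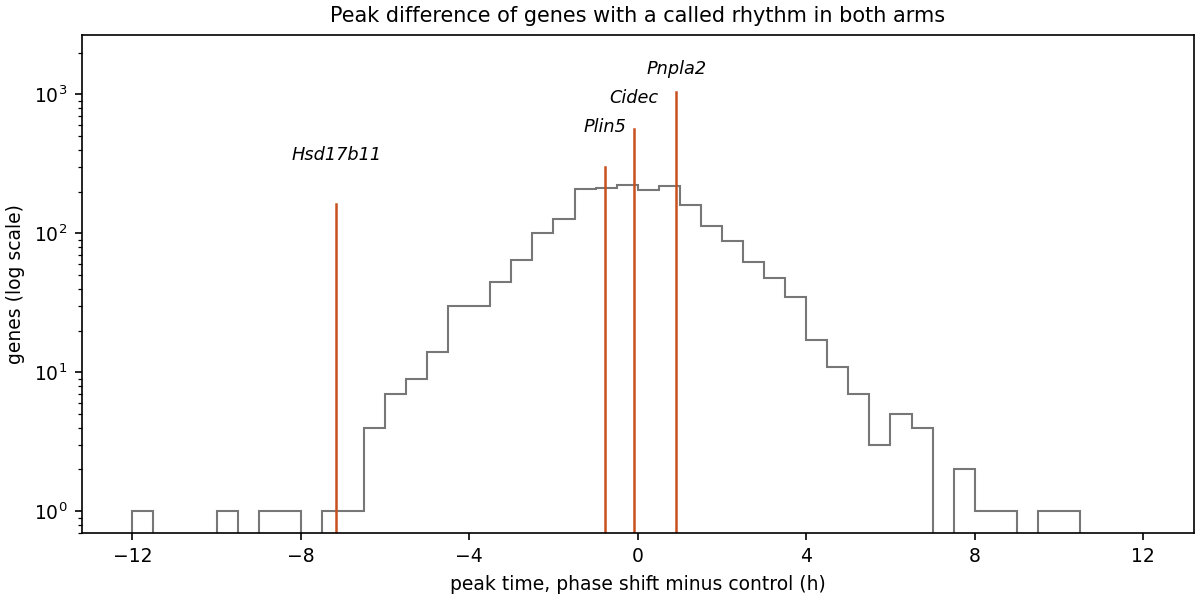
Distribution of the difference in fitted peak time, phase shift minus control in hours (x axis), over the 2066 genes with a called rhythm in both arms (outline; y axis, number of genes on a log scale), with the 4 members that have one in both arms as vertical lines whose heights carry no value. Hsd17b11 stands at -7.16 h, and Plin5, Cidec and Pnpla2 within 1 h of 0.

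Hsd17b13, the neighbour of Hsd17b11 on chromosome 5 (103955440 to 103977410, minus strand, ENSMUSG00000034528), encodes a droplet enzyme of hepatocytes from the same family. The genes lie 12351 bases apart with 1 annotated gene, Gm8200, between them. Their transcripts share no identical run longer than 20 bases. At ZT8 Hsd17b13 had 147, 130.0, 151 and 106 FPKM in phase shift livers, against 86.1, 139.8, 95.1 and 126 FPKM in control livers. At ZT0 Hsd17b13 had 96.7, 119, 117 and 96.2 FPKM in phase shift livers, against 118, 114, 148 and 133 FPKM in control livers. The groups overlapped at both times, with means higher in phase shift livers at ZT8 and lower at ZT0. Over all groups it ran from 86.1 to 155 FPKM, and neither its rhythm (adjusted p = 0.341 in the phase shift arm and 0.264 in control) nor the difference in rhythm (adjusted p = 0.278) passed in edgeR. The fitted peaks, at ZT 10.1 in the phase shift arm and ZT 18.9 in control, belong to these uncalled rhythms.

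Over the 12 group means of log2 CPM, Hsd17b11 and Hsd17b13 had a correlation of 0.92, the highest of the 36 pairs of members. Among the 48 libraries, as deviations from those means, it was -0.13. Since the group means of this pair moved together, the 250 bases before each gene's RefSeq start are shown (RefSeq, GRCm38.p6, minus strand, chr5:104021797-104022046 for Hsd17b11 and chr5:103977389-103977638 for Hsd17b13). Capitals mark a match to the core of the ROR element, the motif of the RORs and of the REV-ERB clock repressors, here read on the opposite strand.
Hsd17b11: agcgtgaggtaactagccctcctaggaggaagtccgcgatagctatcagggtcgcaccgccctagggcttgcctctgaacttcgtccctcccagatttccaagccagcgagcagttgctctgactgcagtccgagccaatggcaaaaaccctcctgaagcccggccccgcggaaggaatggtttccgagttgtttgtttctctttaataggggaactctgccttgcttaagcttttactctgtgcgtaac
Hsd17b13: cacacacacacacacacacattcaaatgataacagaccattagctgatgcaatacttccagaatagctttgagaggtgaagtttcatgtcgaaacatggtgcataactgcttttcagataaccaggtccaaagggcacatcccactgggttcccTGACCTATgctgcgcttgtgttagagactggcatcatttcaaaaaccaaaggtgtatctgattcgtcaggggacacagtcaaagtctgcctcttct
The core was searched as NTAGGTCA on both strands, where N is any base, and 2.22% of 32851 RefSeq windows of this length held it. In Hsd17b13 it lay from -96 to -89, counted from the RefSeq start. The Hsd17b11 window held no match. Such a match is a description of the letters and not a site. The E-box CACGTG (6.02% of windows) and the D-box TTANGTAA (2.06%) were in none of the 11 windows of the 9 members. The single copy AGGTCA, which lies within the ROR core, was in windows of Hsd17b13, Plin2 and Plin5 (14.0% of windows).

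Plin2 encodes the main perilipin of hepatocytes, which coats droplets and whose level is known to follow the amount of stored fat. It lies on chromosome 4 (86648386 to 86670060, minus strand, ENSMUSG00000028494). In the phase shift arm its level was highest at ZT4 and ZT8, with large spread between livers. At ZT4 Plin2 had 119, 139, 123 and 327 FPKM in phase shift livers, against 106, 83.7, 97.8 and 128 FPKM in control livers. The fourth phase shift liver stood far above all others, and the other 3 lay around the top of the control range. The log2 difference at ZT4 was 0.76 (SE 0.22, adjusted p = 0.152 in edgeR), and it was 0.28 without that liver. At ZT8 Plin2 had 104, 146, 195 and 217 FPKM in phase shift livers, against 101, 119.9, 125 and 116 FPKM in control livers. There 3 of 4 phase shift livers lay above all controls, and the log2 difference was 0.53 (SE 0.22, adjusted p = 0.373 in edgeR).

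At the other times the Plin2 groups overlapped. At ZT12 Plin2 had 95.9, 142, 94.5 and 83.8 FPKM in phase shift livers, against 91.8, 90.6, 76.3 and 80.2 FPKM in control livers. At ZT16 Plin2 had 74.9, 110.0, 77.6 and 65.9 FPKM in phase shift livers, against 73.9, 80.5, 87.4 and 82.5 FPKM in control livers. ZT16 was the low point of both arms. At ZT20 Plin2 had 101, 158, 97.9 and 91.9 FPKM in phase shift livers, against 93.1, 107, 104 and 107 FPKM in control livers. The liver at 158 FPKM was the one with the cell division transcripts. At ZT0 Plin2 had 93.4, 118, 130.2 and 117 FPKM in phase shift livers, against 131, 118, 129 and 115 FPKM in control livers.

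The fitted curve of Plin2 peaked at ZT 4.92 (SE 1.00 h) in the phase shift arm and at ZT 2.29 (SE 0.80 h) in control. Its amplitudes were 0.46 (SE 0.12) and 0.26 (SE 0.05) on the log2 scale in phase shift and control livers. In edgeR the rhythm passed in the phase shift arm (adjusted p = 0.000178), and also without phase shift ZT4 replicate 4 (adjusted p = 0.00251). Without that library the control rhythm passed as well (adjusted p = 0.0356), in a fit whose spread is shared by both arms. The control rhythm also passed without control ZT4 replicate 2 (adjusted p = 0.0456). With all libraries, the fitted curve accounted for 41.1% of the variance of Plin2 in the phase shift arm and 52.3% in control. The average log2 difference over the day was 0.27 (SE 0.09, adjusted p = 0.511). The window before the RefSeq start of Plin2 (chr4:86670060-86670309, minus strand) is shown because it was the other of the members' windows with the ROR core, in capitals from -218 to -211 on the opposite strand.
Plin2: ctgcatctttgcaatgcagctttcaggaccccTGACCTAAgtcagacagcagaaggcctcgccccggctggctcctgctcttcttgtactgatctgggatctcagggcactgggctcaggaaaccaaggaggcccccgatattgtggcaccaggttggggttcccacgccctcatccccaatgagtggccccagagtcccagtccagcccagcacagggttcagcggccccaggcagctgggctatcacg

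Plin5 encodes the perilipin of fat-burning tissues, which binds the lipase and its activator ABHD5 and tethers droplets to mitochondria. It lies on chromosome 17 (56111601 to 56117596, minus strand, ENSMUSG00000011305), 1797 bases from Plin4 with no gene between. In both arms its group mean was lowest at ZT8 and highest at ZT16, and in control the mean at ZT0 (32.2 FPKM) was close to that at ZT16 (32.6 FPKM). At ZT8 Plin5 had 14.9, 15.1, 18.7 and 18.0 FPKM in phase shift livers, against 14.9, 23.1, 15.0 and 23.9 FPKM in control livers. At ZT16 Plin5 had 39.6, 47.9, 37.5 and 35.5 FPKM in phase shift livers, against 31.1, 29.9, 31.4 and 38.0 FPKM in control livers. The groups overlapped at both times. At ZT12 Plin5 had 26.4, 31.7, 20.7 and 23.1 FPKM in phase shift livers, against 27.1, 32.2, 35.7 and 24.3 FPKM in control livers. At ZT20 Plin5 had 31.9, 30.2, 32.9 and 27.6 FPKM in phase shift livers, against 22.5, 36.1, 31.3 and 33.5 FPKM in control livers. At ZT0 Plin5 had 36.3, 34.5, 24.4 and 27.4 FPKM in phase shift livers, against 25.2, 25.6, 44.5 and 33.5 FPKM in control livers. In none of these did the arms separate.

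The 1 time with an unadjusted p under 0.05 for Plin5 was ZT4. There Plin5 had 15.5, 19.3, 18.0 and 28.9 FPKM in phase shift livers, against 22.9, 28.8, 31.4 and 23.5 FPKM in control livers. The fourth phase shift liver, the one with the high Plin2 level, lay within the control range and the other 3 below it. The log2 difference was -0.39 (SE 0.19, adjusted p = 0.513 in edgeR), and -0.61 without that liver. The fitted peak was at ZT 18.5 (SE 0.57 h) in the phase shift arm and at ZT 19.2 (SE 1.17 h) in control, with log2 amplitudes of 0.55 (SE 0.08) and 0.30 (SE 0.09). In edgeR the rhythm passed in the phase shift arm (adjusted p = 1.65e-05) and in control (adjusted p = 0.0308), and the difference between them did not (adjusted p = 0.337). The control call was lost without any 1 of control ZT8 replicate 1 (0.0798), ZT8 replicate 2 (0.0529), ZT8 replicate 3 (0.0824), ZT16 replicate 4 (0.0539) or ZT20 replicate 2 (0.0541), values that are adjusted p.

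Plin4, the perilipin of fat and muscle droplets (chromosome 17, 56100591 to 56109803, minus strand, ENSMUSG00000002831), was the scarcest of the 9. It ran from 0.155 to 1.44 FPKM in the phase shift arm and from 0.131 to 1.61 FPKM in control, and the groups overlapped at every time. At ZT0, the group with the widest range, Plin4 had 1.44, 0.888, 0.374 and 0.233 FPKM in phase shift livers, against 0.297, 0.413, 1.61 and 0.994 FPKM in control livers. No rhythm was called in the phase shift arm (adjusted p = 0.595) or in control (adjusted p = 0.775) in edgeR. Without the 8 libraries with much mitochondrial RNA a rhythm passed in the phase shift arm (adjusted p = 0.0103), with a fitted peak at ZT 13.1.

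Cidec encodes a protein that fuses droplets into larger ones, abundant in adipocytes and in fatty liver (chromosome 6, 113424634 to 113435760, minus strand, ENSMUSG00000030278). It had the largest fitted swing of the members, with its highest group mean at labelled ZT12 in both arms. At ZT12 Cidec had 3.85, 6.06, 3.42 and 2.12 FPKM in phase shift livers, against 3.10, 4.23, 1.99 and 1.62 FPKM in control livers. At ZT0 Cidec had 2.95, 1.06, 0.716 and 0.393 FPKM in phase shift livers, against 0.586, 0.741, 1.49 and 0.888 FPKM in control livers. The first phase shift liver at ZT0, the one with the highest mitochondrial share, stood above the other 7. At ZT4 Cidec had 0.541, 1.91, 1.51 and 1.59 FPKM in phase shift livers, against 0.808, 0.930, 1.24 and 0.967 FPKM in control livers. At ZT8 Cidec had 1.39, 2.21, 3.81 and 2.25 FPKM in phase shift livers, against 1.56, 3.80, 1.70 and 2.41 FPKM in control livers. The groups overlapped at all of these times. At ZT16 Cidec had 2.03, 3.87, 1.97 and 1.38 FPKM in phase shift livers, against 1.62, 1.01, 1.38 and 3.47 FPKM in control livers. At ZT20 Cidec had 1.27, 3.42, 0.598 and 0.682 FPKM in phase shift livers, against 1.32, 2.00, 0.876 and 0.940 FPKM in control livers. A single liver, again the one with the cell division transcripts, was high at ZT20.

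The fitted peak of Cidec was at ZT 11.8 (SE 0.97 h) in the phase shift arm and at ZT 11.9 (SE 0.78 h) in control, a difference of -0.10 h (SE 1.25 h). A peak 3.40 times the trough was fitted in phase shift livers, against 2.86 times in control. The rhythm passed in edgeR in the phase shift arm (adjusted p = 0.00453) and in control (adjusted p = 0.0058), and missed in both when any shape over the 6 times was tested (adjusted p = 0.0586 and 0.0634). As deviations from group means over 48 libraries, log2 Cidec had a correlation of 0.51 with the log2 mitochondrial share and of 0.43 with the log2 adipocyte marker sum, whose part in these levels was not tested.

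Cideb, which helps hepatocytes load fat onto VLDL (chromosome 14, 55754050 to 55758458, minus strand, ENSMUSG00000022219), hardly varied over the day. It averaged 32.2 ± 4.33 FPKM in the phase shift arm and 30.6 ± 3.96 FPKM in control (SD, n = 24 each). At ZT20 Cideb had 33.4, 32.8, 38.0 and 29.4 FPKM in phase shift livers, against 20.6, 30.5, 29.3 and 27.3 FPKM in control livers. The groups overlapped there, with the first control liver far below the rest. The log2 difference was 0.31 (SE 0.15, adjusted p = 0.675 in edgeR), and 0.20 without that liver. The lowest of all livers was phase shift ZT0 replicate 1 at 16.4 FPKM, which had the highest mitochondrial share, and the within-group correlation of log2 Cideb with the log2 share was -0.66 over 48 libraries. No rhythm was called in either arm (adjusted p = 0.916 in the phase shift arm and 0.259 in control). The control rhythm passed with the mitochondrial share as a covariate (adjusted p = 0.0371) and without the 8 libraries with the highest share (0.00469). Cideb overlaps Nop9 on the other strand by 1451 bases. Nop9 stood at 20.9 CPM against 47.3 CPM for Cideb, and whether the counting used strand is not given in the sources used here, so reads of the pair may be mixed.

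Pnpla2 encodes adipose triglyceride lipase, which removes the first fatty acid from stored triacylglycerol (chromosome 7, 141455198 to 141460743, plus strand, ENSMUSG00000025509). Its rhythm had the lowest adjusted p of the 9 in both arms. The crest fell at ZT8 and ZT12. At ZT8 Pnpla2 had 39.3, 47.0, 51.8 and 50.4 FPKM in phase shift livers, against 44.7, 66.9, 43.4 and 35.6 FPKM in control livers. At ZT12 Pnpla2 had 56.8, 58.2, 44.0 and 42.8 FPKM in phase shift livers, against 33.7, 46.9, 35.2 and 52.9 FPKM in control livers. The groups overlapped at both times. At ZT20, the lowest group of the phase shift arm, Pnpla2 had 15.7, 18.6, 20.3 and 19.6 FPKM in phase shift livers, against 17.6, 21.8, 22.6 and 15.7 FPKM in control livers. At ZT0 Pnpla2 had 27.8, 22.6, 21.8 and 20.9 FPKM in phase shift livers, against 19.0, 19.9, 22.1 and 26.3 FPKM in control livers. At ZT4 Pnpla2 had 24.8, 40.4, 36.1 and 41.2 FPKM in phase shift livers, against 32.5, 26.0, 20.8 and 34.1 FPKM in control livers. The arms overlapped at each of these 3 times as well.

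In control, Pnpla2 was lowest at ZT16 and ZT20, with close means of 19.3 and 19.4 FPKM (59.7 and 57.2 CPM). At ZT16 the arms stood apart. At ZT16 Pnpla2 had 31.5, 49.7, 27.0 and 25.1 FPKM in phase shift livers, against 22.3, 19.8, 18.3 and 17.0 FPKM in control livers. Every phase shift liver was above every control liver, with means of 33.3 ± 11.2 and 19.3 ± 2.27 FPKM (SD, n = 4 each). As for Hsd17b11, this separation is only a description, without the share of all genes that separated beside it. The log2 difference was 0.78 (SE 0.19, adjusted p = 0.324 in edgeR), and 0.53 without phase shift ZT16 replicate 2. The average difference over the day was 0.23 (SE 0.08, adjusted p = 0.511). The fitted peak was at ZT 9.57 (SE 0.43 h) in the phase shift arm and at ZT 8.66 (SE 0.53 h) in control, a difference of 0.92 h (SE 0.68 h). Amplitudes were 0.71 (SE 0.08) and 0.68 (SE 0.09) on the log2 scale in phase shift and control livers. In edgeR the rhythm passed in the phase shift arm (adjusted p = 6.76e-08) and in control (adjusted p = 8.55e-08), and the difference between them did not (adjusted p = 0.579).

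G0s2 encodes the small protein that inhibits the Pnpla2 lipase (chromosome 1, 193272161 to 193273217, minus strand, ENSMUSG00000009633). It varied more between livers of the same group than any other member. At ZT16 G0s2 had 169, 168, 217 and 229 FPKM in phase shift livers, against 172, 78.7, 73.7 and 263 FPKM in control livers. At ZT4 G0s2 had 23.5, 115, 45.5 and 107 FPKM in phase shift livers, against 104, 144, 80.6 and 53.0 FPKM in control livers. The groups overlapped at both times, the highest and the lowest means of the phase shift arm. The ratio of G0s2 to Pnpla2 FPKM was lowest at ZT8, with a median of 1.46 in phase shift livers and 1.45 in control livers. At ZT0 and ZT4 its medians were 4.79 and 1.93 in phase shift livers and 3.30 and 3.54 in control livers. At ZT12 they were 2.05 in phase shift livers and 3.36 in control livers. At ZT16 its medians were 6.70 in phase shift livers (range 3.37 to 9.12) and 5.87 in control livers (range 3.98 to 15.5). At ZT20 they were 7.02 in phase shift livers (range 3.18 to 10.6) and 3.32 in control livers (range 2.41 to 10.7). The ranges of the arms overlapped at ZT16 and at ZT20. No rhythm of G0s2 was called in the phase shift arm (adjusted p = 0.127) or in control (adjusted p = 0.208) in edgeR. In the phase shift arm it passed with the mitochondrial share as a covariate (adjusted p = 0.0482), without the 8 libraries with the highest share (0.0465) and without phase shift ZT8 replicate 3 (0.0452). The whole gene lies within Lamb3 on the other strand. Lamb3 stood at 4.74 CPM, and reads of this pair may be mixed too.

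**Figure D4:**
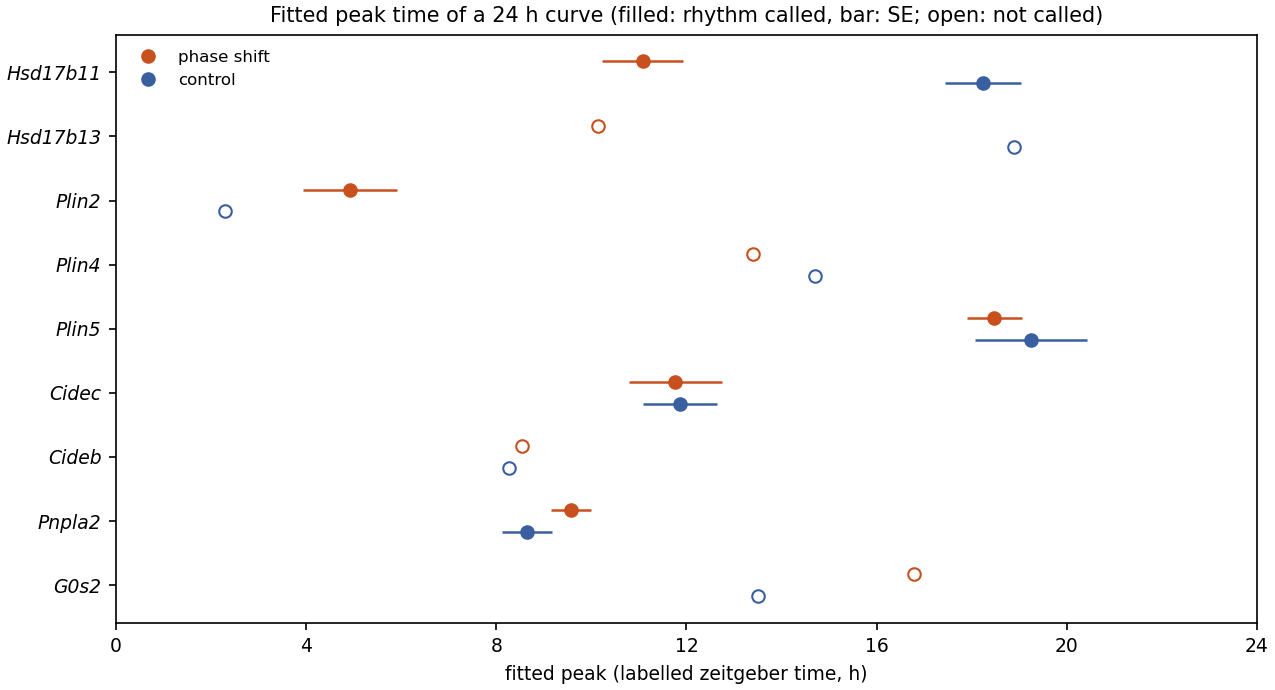
Fitted peak of a 24 h curve (x axis, labelled zeitgeber time in hours) for each gene (y axis), phase shift drawn above control; filled points have a rhythm called in edgeR and bars are SE, open points have none. The peaks of Plin5, Cidec and Pnpla2 lie within 1 h of each other between the arms, and those of Hsd17b11 at ZT 11.1 and ZT 18.2.

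Among the called rhythms of the phase shift arm, Plin2 peaked first (ZT 4.92), then Pnpla2 (ZT 9.57), Hsd17b11 (ZT 11.1) and Cidec (ZT 11.8), and Plin5 last (ZT 18.5). Across the 12 group means of log2 CPM, Plin2 had correlations of -0.77 with Plin5 and -0.79 with G0s2, and Cidec one of 0.77 with Pnpla2. As deviations from group means over 48 libraries, Plin4 had correlations of 0.62 with Cidec and 0.61 with Plin5, Plin5 one of 0.57 with Cidec, and G0s2 one of 0.52 with Plin5. Plin2 and Plin5, opposed over the group means, had one of 0.41 there. These points share library preparation and depth, and the correlations are descriptions without a test.

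The genes with the most similar pattern over the 12 group means were searched among 10431 protein coding genes. They were Hadhb (r = 0.94) and Pros1 (0.92) for Hsd17b11, and Cpd (0.91), Hadhb (0.90) and Akr1c13 (0.90) for Hsd17b13. Scap (0.95), Tm4sf1 (0.93) and Leprot (0.93) were nearest to Plin2. Hexim1 (0.96), Ube2g2 (0.95) and Ablim3 (0.95) were nearest to Plin5, and Fem1a (0.94), Gmps (0.91) and Thumpd3 (0.91) to Plin4. For Cidec they were Coq10b (0.97), Slc41a3 (0.97) and Nrg4 (0.97), and for Cideb Smpd3 (0.90), Trappc4 (0.84) and Itpripl1 (0.83). Gpcpd1 (0.98), Wipf3 (0.96) and Abcg8 (0.96) were nearest to Pnpla2, and Trim41 (0.92), Rnf215 (0.90) and Dcun1d2 (0.90) to G0s2. These correlations rest on 12 points each and were not tested.

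Other genes of the droplet and of fat storage were taken from 4 lists. Of all genes tested, 28.2% had a rhythm in the phase shift arm and 27.3% in control. Of 13 tested genes for droplet coat and biogenesis, 5 had a rhythm in the phase shift arm and 5 in control. Among them Ldah, a droplet hydrolase, peaked at ZT 17.7 in the phase shift arm (adjusted p = 9.14e-06 in edgeR) and at ZT 18.3 in control (5.05e-05). Fitm2, which binds fat as droplets form, peaked at ZT 11.9 in the phase shift arm (2.15e-05) and at ZT 14.5 in control (0.0318). The other 2 listed genes, Plin1 and Cidea, were too low to be tested. Of 12 lipases and cofactors, 8 had a rhythm in the phase shift arm and 8 in control, against the same 28.2% and 27.3%. Mgll, which completes lipolysis by splitting monoacylglycerol, peaked at ZT 15.0 in the phase shift arm (adjusted p = 0.000156) and at ZT 14.2 in control (0.000745). Lipa, the lysosomal acid lipase, peaked at ZT 21.8 in the phase shift arm (adjusted p = 0.000174) and at ZT 21.3 in control (4.85e-07).

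Of 14 genes of triacylglycerol synthesis, 8 had a rhythm in the phase shift arm and 8 in control, against 28.2% and 27.3% of all genes. Dgat2, which makes triacylglycerol in its last step, peaked at ZT 12.8 in both arms (adjusted p = 3.07e-09 in the phase shift arm and 5.81e-08 in control). Lpin1, a phosphatidate phosphatase, peaked at ZT 12.3 in the phase shift arm (adjusted p = 3.66e-07) and at ZT 10.8 in control (0.000124). Of 10 transcription factors that act on droplet genes, 8 had a rhythm in the phase shift arm and 4 in control, against 28.2% and 27.3% of all genes. Rxra, the partner of the PPARs, peaked at ZT 10.3 in the phase shift arm (adjusted p = 9.82e-07) and at ZT 10.2 in control (2.2e-06). Foxo1, a fasting factor known to raise Pnpla2 in mouse liver and fat, had a rhythm called in the phase shift arm (adjusted p = 3.83e-05), with a fitted peak at ZT 12.7. The difference in rhythm missed the threshold for Foxo1 (adjusted p = 0.181) and for every other gene of these 4 lists in edgeR, the nearest being the droplet lipase gene Ddhd2 (adjusted p = 0.0588), which DESeq2 called.

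Between the arms, edgeR, DESeq2 and limma called 0 genes of these 4 lists at any time or for the average. At an unadjusted p under 0.05, edgeR held 0 to 3 of the 10 to 14 genes per list and comparison, against 4.42% to 11.7% of all genes tested. Foxo1 at ZT16 had the smallest of those p. Its log2 difference was 0.55 (SE 0.14, adjusted p = 0.324). On average over the day, 6 of 13 coat genes, 5 of 12 lipases, 10 of 14 synthesis genes and 5 of 10 factors stood above control, against 49.3% of all genes tested.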

How the data were processed

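RNA from 48 livers was sequenced, and a company sequenced, mapped and quantified them, per the labels. Mouse build mm10 is named in the submitters' processing notes. The aligner, counting program and strand setting were not given in the sources used here. The authors deposited raw counts per gene as whole numbers, and FPKM values per gene, which equalled the count divided by gene length and by 1 factor per library (largest relative deviation 5.22e-13% for counts of at least 100). Arms and times were read from sample titles and matched to the column names.

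From the counts, filterByExpr over the 12 groups kept 14555 of 54532 genes. edgeR 4.0.16 (R 4.3.3) with TMM and robust quasi-likelihood fits gave log2 differences, phase shift minus control, from 12 group means over all 48 libraries, and daily rhythms from harmonic terms with a period of 24 h, fitted with a mean in each arm. P-values were adjusted by Benjamini-Hochberg over all 14555 genes, with a threshold of 0.05, after tests on simulated data. Peaks, amplitudes and correlations used log2 CPM with a prior count of 2, by least squares (numpy 2.4.6). FPKM served to show levels.

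A count of 0 allows up to 3 counts, or 0.153 to 0.195 CPM per library, for counting error only. Alternatives were RLE scaling, DESeq2 1.42.0, no filter on low counts, limma 3.58.1 on log2(FPKM + 1) and log2(FPKM + 0.1), a replicate block, the mitochondrial share as a covariate, leaving out 8 libraries, fits at a single time, a test of any shape over the 6 times and leaving out each library. The 9 members and the gene lists were chosen with earlier results of these data known. Members past a threshold, or at an unadjusted p under 0.05 between arms, are given by library. From each list up to 4 genes per comparison with the smallest p could be named, and for each member the 3 most similar protein coding genes whose mean log2 CPM reached 1; 1 of these is not reported here. Promoter windows are RefSeq's, of GRCm38.p6, the build of mm10, and all 9 members matched by symbol.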

Additional observations from a re-analysis of the deposited data

Results flagged for a closer look

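A single library stood far from the other 3 of its group, by Dixon's criterion at 95%, in 4 of 108 combinations of gene and group; chance gives about 1 in 20. Plin2 was at 327 FPKM in phase shift ZT4 replicate 4, with the others at 119 to 139 FPKM. Plin2 was at 158 FPKM in phase shift ZT20 replicate 2, the library with the cell division transcripts, with the others at 91.9 to 101 FPKM. G0s2 was at 207 FPKM in phase shift ZT8 replicate 3, with the others at 54.3 to 77.9 FPKM. G0s2 was at 93.1 FPKM in control ZT0 replicate 3, with the others at 61.3 to 65.4 FPKM.

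The daily rhythm of Hsd17b11 differed between the arms by a test of the difference itself (edgeR, adjusted p = 0.0276), with fitted peaks at ZT 11.1 in the phase shift arm and ZT 18.2 in control.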

How the results depend on the processing

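None of the 10 member differences at an unadjusted p under 0.05, out of 63, changed sign under any alternative. Without the 8 libraries with the most mitochondrial RNA the fitted peak difference of Cidec was 0.17 h (SE 1.19 h), against -0.10 h (SE 1.25 h) with all. That of Cideb was -7.39 h (SE 1.40 h), against 0.28 h (SE 7.39 h). Neither a rhythm of Cideb in the phase shift arm nor its difference in rhythm was called under any alternative. Of 2132 combinations of result and alternative, 2104 kept their side of the threshold, 15 lost a call and 13 gained one. DESeq2 gave no adjusted p for the difference in rhythm of Plin4 and of Cidec. The count of members called between arms was 1 at ZT8 and 1 at ZT16 with DESeq2, against 0 with edgeR, and it was 0 at the other times and for the average under every alternative, each left-out library included. The count with a rhythm that differed between arms was 1 in edgeR. It was 0 without the 8 libraries with the most mitochondrial RNA (Hsd17b11 adjusted p = 0.140), 0 without these and phase shift ZT20 replicate 2, a setting added after seeing the data (0.162), and 0 when any shape over the 6 times was tested (0.0798). The range was 0 to 1 with each library left out. Hsd17b11 passed in 43 of these 48 fits and in 7 of 10 other alternatives. The count with a rhythm ran from 5 to 6 in the phase shift arm and from 3 to 5 in control with each library left out. Other alternatives moved it too. Without the 8 libraries with the most mitochondrial RNA, Plin4 and G0s2 also passed in the phase shift arm and Cideb in control. When any shape over the 6 times was tested, Cidec passed in neither arm.

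The replicate numbers did not pair the samples: over 24 same-numbered pairs the correlation of deviations ran from -0.42 to 0.16, above 0.1 in 4, and 3 pairs matched best by number. With the replicate block the counts of members were the same (0 between arms, 5 and 4 with a rhythm in the phase shift arm and in control, 1 with a different rhythm), while the number of all genes with a different rhythm was 15, against 27 without it. That number was 178 with DESeq2, 72 with the mitochondrial share as a covariate and 45 with no filter. At ZT8 the number of all genes called was 19, against 74 with DESeq2, 29 with the covariate, 12 with the block, 9 with no filter, 7 without the 8 libraries and 0 from that time's libraries alone. At ZT4 it was 17, against 111 with DESeq2, 58 with the covariate, 26 and 33 with limma, 1 without the 8 libraries and 0 from that time's libraries alone. At ZT20 it was 43, against 129 with the covariate, 25 with no filter, and 0 with limma, with the block, without the 8 libraries and from that time's libraries alone. With each library left out, more than 1.5-fold changes in these numbers were found in 23 of 48 fits for the rhythm difference, 9 at ZT4, 6 at ZT8 and 8 at ZT20. At ZT16 it was 0, against 10 with DESeq2 and 15 from that time's libraries alone, and the average gave 0 (0 to 3 with each library left out), against 15 with DESeq2, 3 with the covariate and 1 with the block or limma. The cause of these changes was not tested. Plin4 and Cidec, with as few as 13 counts in a library, are measured with the least precision.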
